A study of Homo sapiens with 24 samples.

Results

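Integrins are cell surface receptors made of 1 α and 1 β subunit that bind the extracellular matrix outside the cell and, through talin and kindlin, the actin cytoskeleton inside it. Laminins are trimers of an α, a β and a γ chain and are the main adhesive proteins of the basement membrane, where α3β1, α6β1, α6β4 and α7β1 are their integrin receptors. Both families were examined in H1299 cells that carry Δ133p53, as the genes of 18 integrin α subunits, 8 integrin β subunits and 11 laminin chains. These 37 genes were chosen by symbol from the 60563 genes of the count table.

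H1299 is an established human non-small cell lung cancer line that lacks p53. The Δ133p53 isoforms are p53 proteins without the amino-terminal part, and the α and β forms differ in their carboxy-terminal end. Poly(A) RNA had been sequenced from 4 libraries of H1299 cells with the vector only, and from clonal lines with a stable plasmid for Δ133p53α (Δ133p53α1, Δ133p53α2 and Δ133p53α8, 4 libraries each) or Δ133p53β (Δ133p53β5, 3 libraries, and Δ133p53β10, 4 libraries). The sources used here do not give whether the libraries of a line came from separate cultures, so a p-value measures the spread between these libraries, which may be technical. Every line is 1 clone and the control is 1 line, so an effect of the isoform and a difference between clones cannot be told apart, and the 5 comparisons of a line with control use the same 4 control libraries.

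A pair of facts about the libraries bears on the values. First, 1 of the 24 libraries is titled as replicate 5 of Δ133p53β10, whereas the count table names it a replicate of Δ133p53β5. It was left out of the group values, is given separately as the library of unclear clone, and was counted in either line as an alternative. Second, the libraries fall into a set of 12 in which long genes were high and a set of 12 in which long genes were low, by a rank correlation of gene deviations with exon length of 0.186 to 0.303 and of -0.278 to -0.102. The set with long genes high held 3 control libraries, 1 of Δ133p53α1, 3 of Δ133p53α2, 3 of Δ133p53α8, 1 of Δ133p53β5 and 1 of Δ133p53β10. Total counts were 21531599 to 25381731 per library. The 3 highest were 25381731 in control replicate 1, and 25295008 and 24796915 in replicates 3 and 4 of Δ133p53β10. Every other library had at most 22114711.

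The cells had the makeup of a vimentin-positive carcinoma line. KRT8, KRT18 and VIM had at least 11255 reads in every library, and the epithelial markers EPCAM, CDH1 and KRT19 had at most 5. The leukocyte markers PTPRC and CD3E had 0 reads in all libraries, and the 5 leukocyte markers together reached at most 0.662 CPM (counts scaled to the size of the library with TMM factors). The 5 epithelial markers summed to 893 to 1670 CPM in control and to 1860 to 7530 CPM in the clonal lines, and the part of this difference in the values below was not tested.

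Of the 37 genes, 28 passed the filter on low counts. The 9 that did not were ITGA8, ITGA9, ITGA11, ITGAD, ITGAL, ITGB8, LAMA1, LAMA4 and LAMB4, none with more than 18 reads in any library. Levels between genes were compared per kilobase of exon (FPKM, from the exon length of the GENCODE annotation). Integrin α3 and α6, the laminin-binding α subunits of epithelial cells, led with a mean over the lines of 80.3 FPKM for ITGA3 and 76.3 FPKM for ITGA6. LAMB3, the β chain of laminin-332, followed at 29.7 FPKM, ITGB1, the β subunit shared by most integrins, at 24.4 FPKM, and LAMC1, the γ chain of most laminins, at 12.6 FPKM. In control, ITGA3 made up 42.2% ± 15.4 (SD, n = 4) and ITGA6 44% ± 16.0 of the summed FPKM of the integrin α genes.

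**Figure D1:**
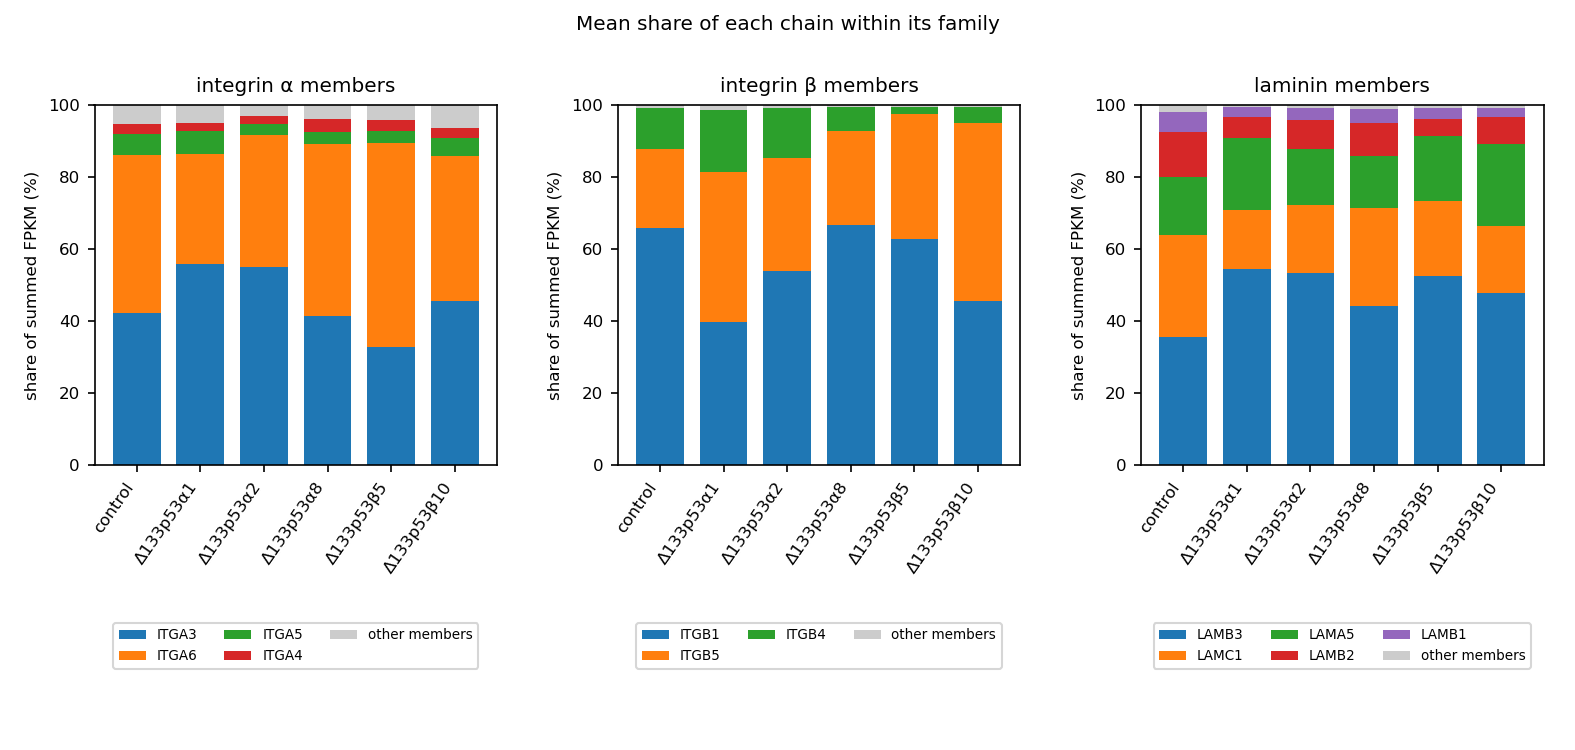
Mean share of each chain in the summed FPKM of its family, in percent, for control and the 5 clonal lines (means of 4 libraries, 3 for Δ133p53β5, drawn without error). ITGA3 and ITGA6 fill most of the integrin α bar, ITGB1 and ITGB5 most of the β bar, and LAMB3 is the largest laminin share in every line.

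Within the β subunits, ITGB1 held 65.9% ± 16.4 of the summed FPKM in control, ITGB5, which pairs with αV, 22.0% ± 9.47 and ITGB4, the α6 partner of hemidesmosomes, 11.3% ± 9.33. The ITGB4 share was 2.13% ± 1.08 (n = 3) in Δ133p53β5 and 4.32% ± 2.00 (n = 4) in Δ133p53β10. Among the laminin genes, LAMB3 held 35.5% ± 1.31 in control and between 44.3% ± 5.78 in Δ133p53α8 and 54.4% ± 5.86 in Δ133p53α1 in the clonal lines. ITGA6 and ITGB1, whose shares had large SDs, also differed between the length sets.

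Each line was set against control by the quasi-likelihood test of edgeR over the 18295 genes that passed the filter. A gene was called where its p, adjusted by Benjamini-Hochberg, was under 0.05 and its fold change, up or down, was 1.5 log2 units or more. In Δ133p53α1, 1 of the 28 tested members was called higher and 1 lower, where 1.04% and 1.54% of all tested genes were. In Δ133p53α2, 0 were called higher and 2 lower, against 0.978% and 1.83% of all genes. In Δ133p53α8, 0 members were called by edgeR, against 0.984% of all genes called higher and 1.55% lower. In that line 6 members had an unadjusted p under 0.05 by edgeR, 1 was called by DESeq2 and 0 by limma-voom. The shares of all genes at that unadjusted p and by DESeq2 or limma-voom are not given here.

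The Δ133p53β lines had more called members. In Δ133p53β5, 0 were called higher and 5 lower, against 1.31% and 2.96% of all genes, and counting the library of unclear clone in this line left 4. In Δ133p53β10, 1 was called higher and 5 lower, against 1.76% and 2.97% of all genes, and 6 were called when that library was counted in Δ133p53β10. By the adjusted p alone the counts in the same order of lines were 4, 3, 2, 7 and 7, where 4.83%, 5.28%, 4.51%, 8.03% and 9.81% of all genes passed.

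The median log2 fold change of the members was -0.90 in Δ133p53β5 and -0.60 in Δ133p53β10, with -0.33 (Δ133p53α1), -0.26 (Δ133p53α8) and -0.11 (Δ133p53α2) in the other lines. Over all tested genes the medians of the 5 lines lay between -0.08 and 0.01. Of the 28 members, 21 had a fold change below 0 in Δ133p53β5 and 22 in Δ133p53β10, called or not. The share of all genes below 0 is not given here. The length sets were unevenly spread, with 3 control libraries in the set with long genes high against 1 of each Δ133p53β line. The part of this spread in the medians was not tested.

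**Figure D2:**
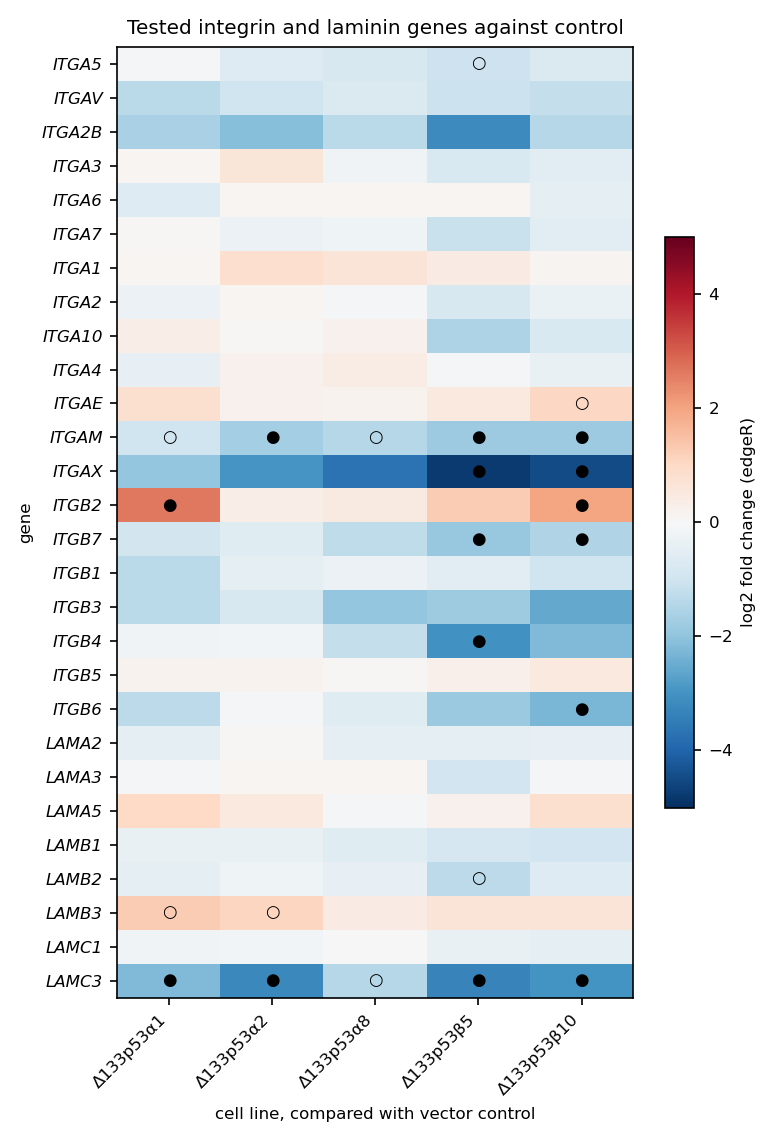
Log2 fold change of the 28 tested members (rows) in each clonal line against vector control (columns), from edgeR, with blue for lower and red for higher. Filled circles mark called members and open circles those past the adjusted p alone. LAMC3 and ITGAM are marked in all 5 columns.

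LAMC3 and ITGAM were the members that passed the adjusted p in all 5 lines by edgeR. LAMC3 encodes the laminin γ3 chain, a minor γ chain that occurs outside as well as within basement membranes (ENSG00000050555, GRCh38 chromosome 9, 131009174 to 131094473, plus strand). Its level was 3.26, 3.22, 3.91 and 3.07 CPM in the control libraries. It was 0.507, 0.811, 0.494 and 1.12 CPM in Δ133p53α1, 0.445, 0.437, 0.206 and 0.330 CPM in Δ133p53α2, and 1.51, 1.35, 1.10 and 1.01 CPM in Δ133p53α8. It was 0.429, 0.278 and 0.280 CPM in Δ133p53β5, 0.333, 0.528, 0.560 and 0.291 CPM in Δ133p53β10, and 0.356 CPM in the library of unclear clone. Every clonal library lay below the lowest control library, and Δ133p53α8 lay highest among the clones.

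The log2 fold change of LAMC3 was -2.20 ± 0.31 (SE) in Δ133p53α1 (adjusted p = 0.000112, edgeR), -3.24 ± 0.33 in Δ133p53α2 (adjusted p = 1.54e-06) and -1.43 ± 0.29 in Δ133p53α8 (adjusted p = 0.00458), the last short of the fold threshold. It was -3.33 ± 0.37 in Δ133p53β5 (adjusted p = 5.57e-06) and -2.97 ± 0.32 in Δ133p53β10 (adjusted p = 2.85e-06). These values rest on 71 to 102 reads per control library and 5 to 35 per clonal library. Among the Δ133p53α clones, LAMC3 was the single member called in a joint test, with its largest difference of 1.80 log2 units between Δ133p53α8 and Δ133p53α2 (adjusted p = 0.0125), where 0.782% of all genes were called and 1.04% passed by adjusted p alone. That call was lost without replicate 3 or 4 of Δ133p53α2 or replicate 1 of Δ133p53α8, with a largest adjusted p of 0.0621.

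ITGAM encodes integrin αM (CD11b), which with β2 forms the complement receptor of myeloid cells (ENSG00000169896, chromosome 16, 31259967 to 31332892, plus strand). Its control libraries had 8.37, 12.3, 7.89 and 10.8 CPM. The level was 4.52, 4.96, 4.06 and 6.18 CPM in Δ133p53α1, 2.67, 4.32, 1.98 and 3.10 CPM in Δ133p53α2, and 3.58, 3.73, 3.06 and 4.46 CPM in Δ133p53α8. It was 3.05, 2.82 and 2.56 CPM in Δ133p53β5, 2.79, 2.93, 2.65 and 2.87 CPM in Δ133p53β10, and 2.24 CPM in the library of unclear clone. No clonal line overlapped control.

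The log2 fold change of ITGAM was -0.99 ± 0.22 in Δ133p53α1 (adjusted p = 0.0108, edgeR) and -1.41 ± 0.23 in Δ133p53α8 (adjusted p = 0.000492), both under the fold threshold. It was -1.70 ± 0.23 in Δ133p53α2 (adjusted p = 5.09e-05), -1.80 ± 0.26 in Δ133p53β5 (adjusted p = 0.000105) and -1.81 ± 0.23 in Δ133p53β10 (adjusted p = 2.48e-05), and these lines were called. Both genes were close to level between the length sets, with a difference of -0.17 log2 units for LAMC3 and 0.08 for ITGAM. The LAMC3 and ITGAM calls against control were kept in each of the 33 other fits of each comparison, leaving out each library included. Where the fold threshold was not reached, LAMC3 passed the adjusted p in Δ133p53α8 and ITGAM in Δ133p53α8 in all 33, whereas ITGAM in Δ133p53α1 no longer passed in 3, which were no filter (adjusted p = 0.0611), without replicate 3 of that line and without control replicate 2.

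**Figure D3:**
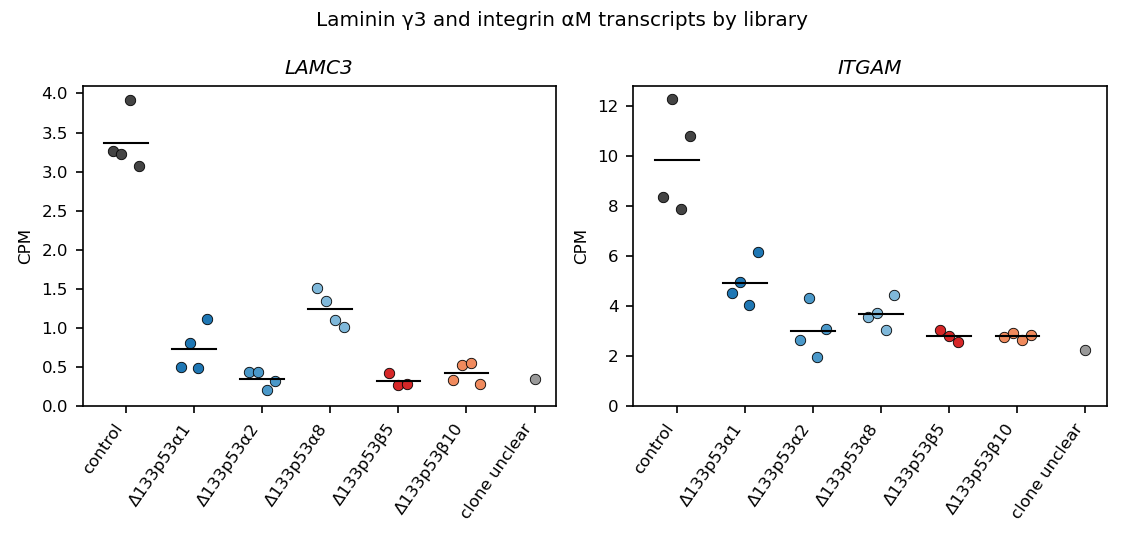
LAMC3 and ITGAM in CPM (vertical axis) in every library of control, the 5 clonal lines and the library of unclear clone. Points are libraries and lines are group means. The 4 control points of LAMC3 lie between 3.07 and 3.91 CPM and those of ITGAM between 7.89 and 12.3 CPM, above every other point.

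The promoter of ITGAM, the member of this pair with a RefSeq entry, is shown beside that of LAMB3, which moved the other way. Both are the 250 bases before the RefSeq start on GRCh38.p14, printed 5′ to 3′ on the strand of the gene, and 26 of the 37 members matched an entry. Capitals mark the GC box GGGCGG and the PU.1 core GAGGAA, on either strand.
ITGAM, chr16:31259725-31259974, plus strand: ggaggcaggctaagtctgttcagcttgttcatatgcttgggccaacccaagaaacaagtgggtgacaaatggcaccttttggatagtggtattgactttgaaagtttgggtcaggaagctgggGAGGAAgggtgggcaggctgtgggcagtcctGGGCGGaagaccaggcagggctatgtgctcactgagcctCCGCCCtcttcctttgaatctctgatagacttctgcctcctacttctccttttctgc
LAMB3, chr1:209652426-209652675, minus strand: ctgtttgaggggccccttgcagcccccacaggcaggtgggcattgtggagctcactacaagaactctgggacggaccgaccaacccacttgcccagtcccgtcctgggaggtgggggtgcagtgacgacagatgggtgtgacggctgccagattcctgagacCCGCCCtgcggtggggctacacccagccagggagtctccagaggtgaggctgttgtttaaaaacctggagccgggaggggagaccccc

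The ITGAM window had 53.2% G and C, 2 CpG dinucleotides, 2 GC boxes and 1 PU.1 core. The LAMB3 window had 64.0% G and C, 8 CpG dinucleotides and 1 GC box. A GC box was found in 42.6% and a PU.1 core in 23.6% of the 35116 RefSeq promoter windows of the same length, whose median G and C content was 58.0%. A TATA box (TATAAA), an AP-1 site (TGANTCA) and a p53 half-site were looked for as well on both strands and had 0 matches in either window, with 10.7%, 6.57% and 5.57% of all windows holding one. SPI1, the gene of PU.1, had at most 2 reads in any library.

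LAMB3 encodes the laminin β3 chain of the epithelial laminin-332 (ENSG00000196878, chromosome 1, 209614870 to 209652425, minus strand). The control libraries had 65.6, 77.3, 107 and 82.1 CPM. The level was 171, 241, 194 and 194 CPM in Δ133p53α1, 235, 180, 169 and 123 CPM in Δ133p53α2, and 156, 107, 81.2 and 94.5 CPM in Δ133p53α8. It was 154, 124 and 112 CPM in Δ133p53β5, 130, 119, 174 and 95.4 CPM in Δ133p53β10, and 158 CPM in the library of unclear clone. Δ133p53α1, Δ133p53α2 and Δ133p53β5 did not overlap control. LAMB3 rose by the adjusted p in Δ133p53α1 (log2 fold change 1.27 ± 0.24, adjusted p = 0.00231, edgeR) and Δ133p53α2 (1.09 ± 0.24, adjusted p = 0.00672), without reaching the fold threshold.

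Of the other laminin genes, LAMB2, the β chain of vascular and synaptic laminins, passed the adjusted p in Δ133p53β5 (log2 fold change -1.30 ± 0.36, adjusted p = 0.0287, edgeR) with 13.1 to 20.7 CPM against 28.8 to 79.6 CPM in control. It no longer passed with the library of unclear clone, which had 43.9 CPM, counted in Δ133p53β5 (-0.82, adjusted p = 0.174), without any 1 of the 3 Δ133p53β5 libraries or without control replicate 3. LAMA5, the α chain of laminin-511, had a log2 fold change of 1.00 ± 0.33 in Δ133p53α1 (adjusted p = 0.0826, edgeR), which missed the threshold and passed in 5 of 33 other fits, DESeq2 among them. LAMA2, LAMA3 and LAMC1 passed in no line in any fit, LAMB1 passed in 1 alone (Δ133p53β10 without its replicate 1), and over the tested laminin α and β chains and LAMC1 the log2 fold changes lay between -1.30 and 1.27.

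LAMA1 and LAMA4, embryonic and endothelial laminin α chains, were too low for the filter. LAMA1 had 5, 11, 18 and 4 reads in the control libraries and at most 1 read in any clonal library. LAMA4 had 9, 4, 10 and 4 reads in control and at most 2 reads in any clonal library. Against a floor of 3 reads per library, LAMA1 was at least 2.54-fold to 2.94-fold lower in the 5 lines and LAMA4 at least 1.79-fold to 2.06-fold lower. Floors and reads cover counting error only, and reads without molecular identifiers are not independent molecules.

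The leukocyte integrins held the widest differences at low levels. ITGAX encodes αX (CD11c) of complement receptor 4 (ENSG00000140678, chromosome 16, 31355134 to 31382999, plus strand). Its level was 1.98, 0.566, 7.63 and 0.432 CPM in control, 0.296, 0.101, 0.110 and 2.29 CPM in Δ133p53α1, 0.167, 0, 0.248 and 0.908 CPM in Δ133p53α2, and 0, 0.653, 0.0849 and 0.0841 CPM in Δ133p53α8. It was 0.0858, 0.185 and 0 CPM in Δ133p53β5, 0.0416, 0.192, 0.102 and 0.125 CPM in Δ133p53β10, and 0.305 CPM in the library of unclear clone. The Δ133p53β libraries lay below all control libraries, and 1 library each of control and the 3 Δ133p53α lines stood well above the others of its line.

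ITGAX was called lower in Δ133p53β5 (log2 fold change -4.80 ± 1.44, adjusted p = 0.0434, edgeR) and in Δ133p53β10 (-4.48 ± 1.24, adjusted p = 0.0252). Without control replicate 3, which had 199 reads against 10 to 51 in the other control libraries, both calls were lost, with log2 fold changes of -3.38 and -3.04. In all, the call was lost in 12 of 33 other fits in Δ133p53β5 and in 6 in Δ133p53β10. These included limma-voom (adjusted p = 0.085 and 0.0642), the fit without the 3 libraries of highest total (adjusted p = 0.0577 and 0.205), and the fits that left out any 1 of the 3 Δ133p53β5 libraries for the first or replicate 2, 3 or 4 of Δ133p53β10 for the second. The call in Δ133p53β5 was also lost without replicate 3 of Δ133p53α2, replicate 3 or 4 of Δ133p53α8 or replicate 2 or 4 of Δ133p53β10.

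ITGB2, the common β subunit of the leukocyte integrins, was called higher in Δ133p53α1 and Δ133p53β10 (ENSG00000160255, chromosome 21, 44885953 to 44931989, minus strand). Control had 0.155, 0.261, 0.153 and 0.216 CPM. The level was 1.14, 1.37, 1.32 and 1.12 CPM in Δ133p53α1, 0.223, 0.175, 0.289 and 0.289 CPM in Δ133p53α2, and 0.517, 0.140, 0 and 0.420 CPM in Δ133p53α8. It was 0.558, 0.602 and 0.280 CPM in Δ133p53β5, 1.04, 0.961, 1.02 and 0.125 CPM in Δ133p53β10, and 0.508 CPM in the library of unclear clone. Δ133p53α1 lay above control in all 4 libraries, while replicate 4 of Δ133p53β10 lay below all control libraries.

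The log2 fold change of ITGB2 was 2.63 ± 0.62 in Δ133p53α1 (adjusted p = 0.0144, edgeR) and 1.97 ± 0.62 in Δ133p53β10 (adjusted p = 0.0470), from 4 to 6 reads per control library. The first call was kept in all 33 other fits and the second was lost in 17. ITGB2 overlaps the lncRNA gene ITGB2-AS1 on the opposite strand and a further lncRNA gene on its own strand. The strand setting of the counting is not given in the sources used here, so reads of these genes cannot be told apart.

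ITGB7, the β partner of α4 and αE on lymphocytes, was called lower in both Δ133p53β lines (ENSG00000139626, chromosome 12, 53191323 to 53207282, minus strand). It had 0.737, 1.22, 1.69 and 0.951 CPM in control, 0.718, 0.507, 0.330 and 0.852 CPM in Δ133p53α1, 0.668, 0.480, 1.07 and 0.743 CPM in Δ133p53α2, and 0.345, 0.280, 0.424 and 0.841 CPM in Δ133p53α8. It had 0.257, 0.556 and 0.0932 CPM in Δ133p53β5, 0.250, 0.288, 0.509 and 0.541 CPM in Δ133p53β10, and 0.407 CPM in the library of unclear clone. The 7 Δ133p53β libraries lay below control, while each Δ133p53α line overlapped it.

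The log2 fold change of ITGB7 was -1.91 ± 0.52 in Δ133p53β5 (adjusted p = 0.0247, edgeR) and -1.52 ± 0.46 in Δ133p53β10 (adjusted p = 0.0374). The call in Δ133p53β10 lay just past the fold threshold and was lost in 27 of 33 other fits, among them both that counted the library of unclear clone. The call in Δ133p53β5 was lost with no filter (adjusted p = 0.0501) and without replicate 1 or 3 of that line or control replicate 3, with a log2 fold change between -2.66 and -1.48. ITGB7 overlaps the protein-coding gene ZNF740 on the opposite strand.

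ITGAE, the αE subunit that binds E-cadherin, passed the adjusted p in Δ133p53β10 (log2 fold change 1.05 ± 0.33, adjusted p = 0.0463, edgeR), with 13.4 to 48.4 CPM against 9.08 to 19.7 CPM in control, so the groups overlapped. It no longer passed in 17 of 33 other fits, among them limma-voom (adjusted p = 0.0749), no filter (adjusted p = 0.0518), the length set as a term (0.63, adjusted p = 0.0723) and without the 3 libraries with the highest totals (0.65, adjusted p = 0.389). ITGAE was -0.76 log2 units apart between the length sets, lower where long genes were high, and 3 of 4 control libraries but 1 of 4 Δ133p53β10 libraries belong to that set. The gene overlaps HASPIN on the opposite strand. ITGAD and ITGAL, the αD and αL subunits, had at most 4 and 2 reads.

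ITGB4 pairs with α6 in hemidesmosomes, where it links laminin-332 to keratin filaments (ENSG00000132470, chromosome 17, 75721328 to 75757818, plus strand). Its control libraries had 59.9, 11.9, 77.6 and 11.5 CPM. The level was 19.7, 16.8, 22.9 and 83.6 CPM in Δ133p53α1, 42.2, 16.7, 26.0 and 61.0 CPM in Δ133p53α2, and 6.55, 49.9, 7.68 and 6.01 CPM in Δ133p53α8. It was 3.86, 6.25 and 4.57 CPM in Δ133p53β5, 4.91, 8.17, 10.3 and 11.2 CPM in Δ133p53β10, and 18.4 CPM in the library of unclear clone. The 7 Δ133p53β libraries lay below all control libraries, and the library of unclear clone did not. Control was split, with 2 libraries at 59.9 and 77.6 CPM and 2 at 11.5 and 11.9 CPM, and 1 library each of Δ133p53α1 and Δ133p53α8 lay several times above the others of its line.

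The log2 fold change of ITGB4 was -3.04 ± 0.86 in Δ133p53β5 (adjusted p = 0.0307, edgeR), which was called, and -2.22 ± 0.74 in Δ133p53β10 (adjusted p = 0.0601), which was not. Counting the library of unclear clone in Δ133p53β5 gave -2.26 (adjusted p = 0.0723), and the call was also lost with limma-voom (adjusted p = 0.0512), without the 3 libraries with the highest totals (adjusted p = 0.0653), and without control replicate 1 or 3 or any 1 of the 3 Δ133p53β5 libraries. With the length set as a term, the values were -3.49 (adjusted p = 0.00179) and -2.84 (adjusted p = 0.00388). In the set with long genes low, the level was 59.9 CPM in the 1 control library, 4.57 to 6.25 CPM in 2 of Δ133p53β5 and 8.17 to 11.2 CPM in 3 of Δ133p53β10. In the other set it was 11.5 to 77.6 CPM in 3 control libraries and 3.86 and 4.91 CPM in 1 library of each Δ133p53β line. ITGB4 overlaps GALK1 on the opposite strand.

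ITGB6, the epithelial αV partner that activates TGF-β, was called lower in Δ133p53β10 (ENSG00000115221, chromosome 2, 160099667 to 160200313, minus strand). It had 0.581, 0.392, 0.422 and 0.216 CPM in control, 0.254, 0.101, 0.110 and 0.160 CPM in Δ133p53α1, 0.111, 0.175, 0.413 and 0.784 CPM in Δ133p53α2, and 0.129, 0.560, 0.127 and 0.252 CPM in Δ133p53α8. It had 0, 0.185 and 0.140 CPM in Δ133p53β5, 0.166, 0.0480, 0.0509 and 0.0416 CPM in Δ133p53β10, and 0.152 CPM in the library of unclear clone. The 2 Δ133p53β lines lay below control, and each Δ133p53α line overlapped it. The log2 fold change in Δ133p53β10 was -2.29 ± 0.72 (adjusted p = 0.0485, edgeR), from 1 to 4 reads per library, and the call was lost in 19 of 33 other fits.

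**Figure D4:**
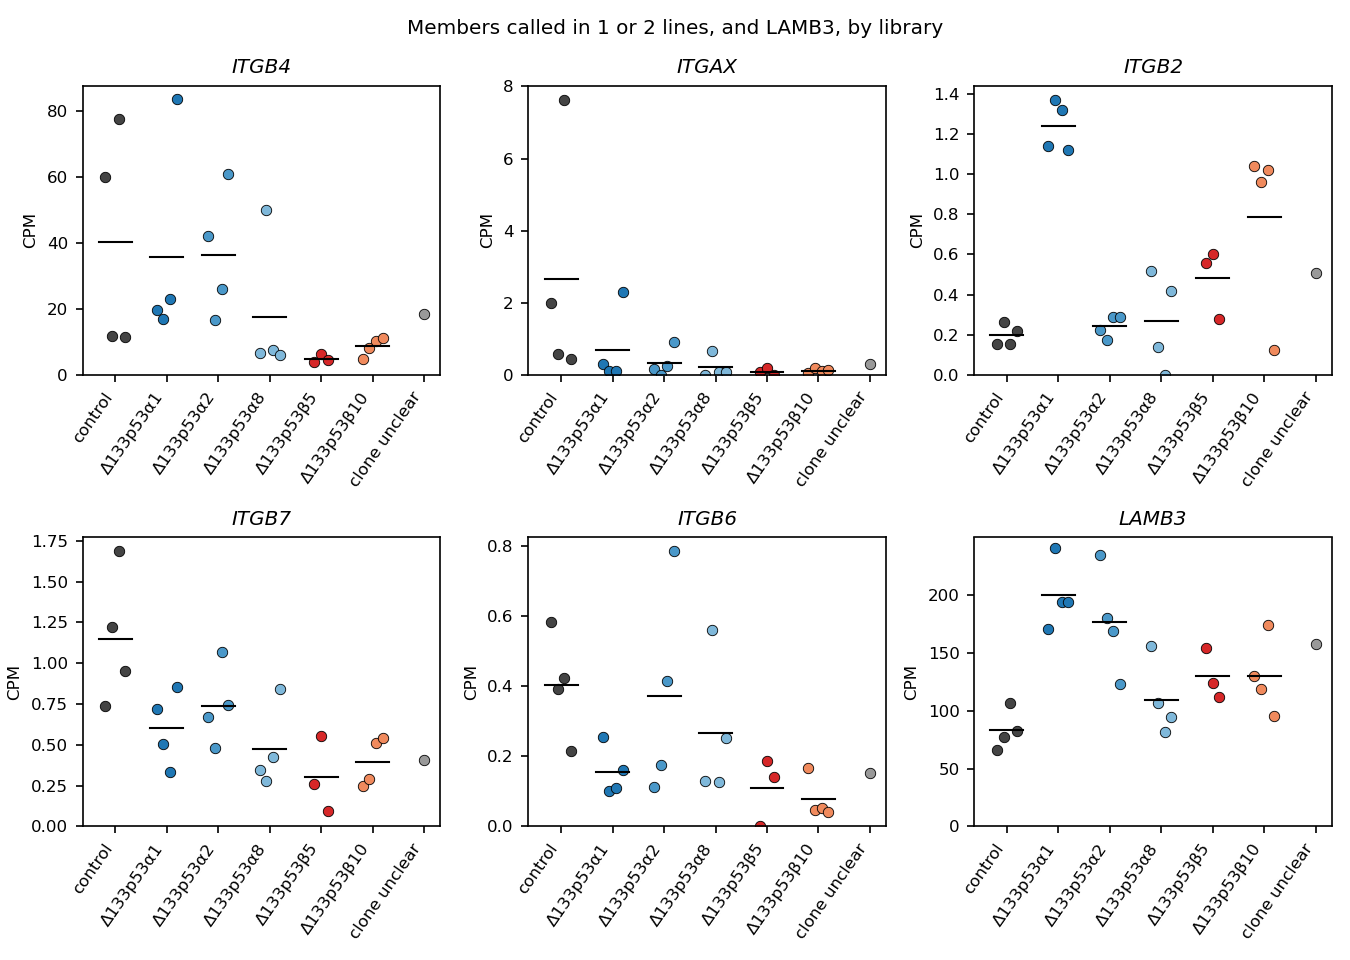
ITGB4, ITGAX, ITGB2, ITGB7, ITGB6 and LAMB3 in CPM (vertical axes) in every library of control, the 5 clonal lines and the library of unclear clone, with group means as lines. ITGB4 shows 2 high and 2 low control libraries and 1 high library each in Δ133p53α1 and Δ133p53α8, and ITGB2 is above 1.1 CPM in all 4 libraries of Δ133p53α1.

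The fibronectin receptor subunit α5 is 1 of the surface proteins that were stained in these lines. Its gene, ITGA5, was not called in any line (ENSG00000161638, chromosome 12, 54395261 to 54419266, minus strand). Control had 85.9, 67.5, 98.6 and 62.7 CPM. The level was 63.5, 65.0, 66.0 and 106 CPM in Δ133p53α1, 49.9, 50.4, 40.3 and 58.8 CPM in Δ133p53α2, and 43.7, 66.9, 35.1 and 34.5 CPM in Δ133p53α8. It was 43.5, 42.2 and 30.8 CPM in Δ133p53β5, 46.5, 51.5, 59.3 and 34.2 CPM in Δ133p53β10, and 65.4 CPM in the library of unclear clone. Δ133p53α2 and both Δ133p53β lines lay below control, and Δ133p53α1 and Δ133p53α8 overlapped it.

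ITGA5 passed the adjusted p in Δ133p53β5 (log2 fold change -1.02 ± 0.27, adjusted p = 0.0199, edgeR). With the library of unclear clone counted in that line it was -0.77 (adjusted p = 0.0695) and no longer passed, nor did it without replicate 2 or 3 of Δ133p53β5 or control replicate 3. In Δ133p53α8 and Δ133p53β10 it missed the threshold (adjusted p = 0.0639 and 0.064, edgeR) and passed in 5 and 3 of 33 other fits, with DESeq2 and with the length set as a term in both. ITGAV and ITGA2B, the other tested RGD-binding α subunits, passed in no line by edgeR, with log2 fold changes from -3.19 to -0.73 over the 5 lines. With trends with length and GC content removed, ITGAV passed the adjusted p in all 5 lines, at -0.86 to -1.24 log2 units and adjusted p-values of 0.000116 to 0.00447. With the length set as a term instead, ITGAV passed in Δ133p53α2 alone. In that fit it was -0.99 in Δ133p53α1 (adjusted p = 0.0546, edgeR), -0.59 in Δ133p53β5 (adjusted p = 0.24) and -0.71 in Δ133p53β10 (adjusted p = 0.14). ITGA2B passed in Δ133p53β5 in 4 of 33 other fits, DESeq2 among them. ITGB3, the β3 partner of both, had -2.55 ± 0.82 in Δ133p53β10 (adjusted p = 0.0527, edgeR) and passed in 9 of 33 other fits.

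The collagen-binding subunits ITGA1 and ITGA2 and the fibronectin and VCAM-1 receptor subunit ITGA4 passed against control in no line and no fit. ITGA10, a collagen-binding subunit of cartilage, passed in no line by edgeR (adjusted p = 0.0951 in Δ133p53β5). In Δ133p53β5 it was called by DESeq2 (-1.54, adjusted p = 0.0353), without the 3 libraries with the highest totals (-1.62, adjusted p = 0.0435) and without replicate 3 of Δ133p53β10 (-1.54, adjusted p = 0.0424).

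ITGB1 varied widely between libraries of each line (ENSG00000150093, chromosome 10, 32887273 to 33005792, minus strand). ITGB1 had 231, 496, 842 and 503 CPM in control, 527, 149, 73.0 and 71.3 CPM in Δ133p53α1, 57.9, 386, 634 and 432 CPM in Δ133p53α2, and 429, 195, 520 and 540 CPM in Δ133p53α8. It had 478, 208 and 355 CPM in Δ133p53β5, 580, 118, 42.3 and 296 CPM in Δ133p53β10, and 116 CPM in the library of unclear clone. All libraries at 386 CPM or more belonged to the set with long genes high, and each line overlapped control.

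ITGA3 varied between libraries of a line as well, with 817 ± 483 CPM (SD, n = 4) and a range of 495 to 1530 CPM in control. Line means ran from 482 ± 80.2 CPM (n = 3) in Δ133p53β5 to 1250 ± 307 CPM (n = 4) in Δ133p53α2. The ITGA3 difference of -0.30 log2 units between the length sets did not pass (adjusted p = 0.169, edgeR).

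Between the length sets, within lines, ITGB1 was 1.82 log2 units higher where long genes were high, ITGA2 2.35, ITGA6 1.39, ITGAV 1.34 and LAMC1 0.95. ITGB4 was -1.20 log2 units apart and ITGAE -0.76, so lower in that set. By the adjusted p, 14 of the 28 tested members differed between the sets, where 66.2% of all tested genes did. The sets were formed from all genes of these libraries, so these differences are a description. Against control ITGB1 gave log2 fold changes of -1.34 ± 0.74 to -0.30 ± 0.72 and passed in no line (lowest adjusted p = 0.240, edgeR). Without replicate 1 of Δ133p53α1, the single library of that line in the set with long genes high, ITGB1 (-2.36, adjusted p = 0.0345) and ITGAV (-2.16, adjusted p = 0.0141) were called in Δ133p53α1.

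**Figure D5:**
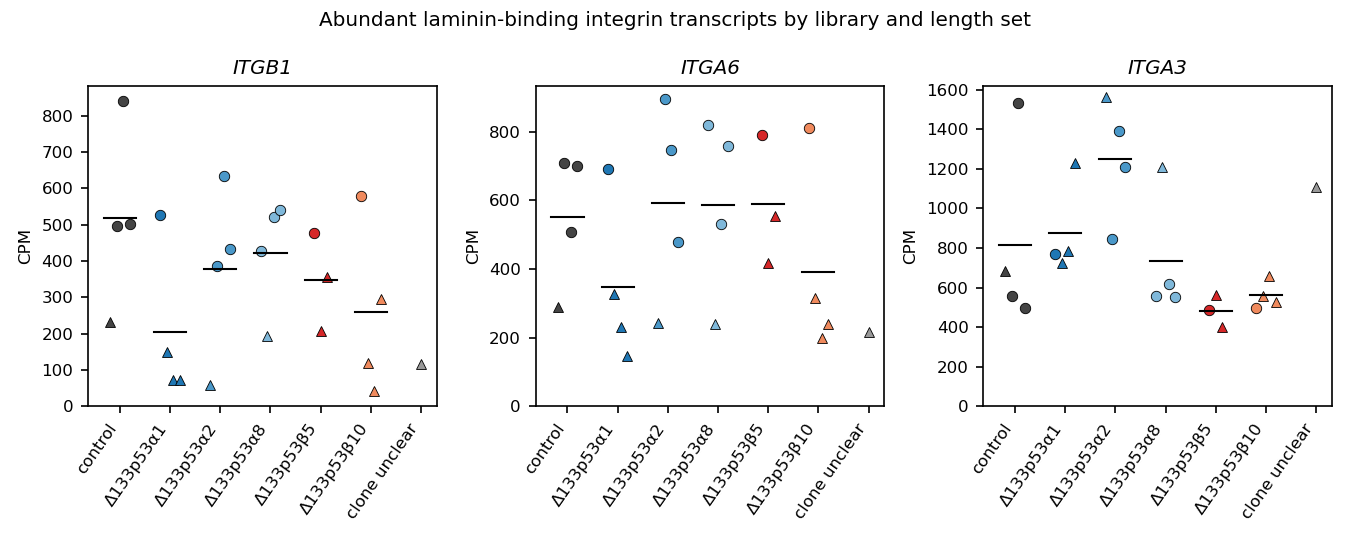
ITGB1, ITGA6 and ITGA3 in CPM (vertical axes) in every library of control, the 5 clonal lines and the library of unclear clone. Circles are libraries of the set with long genes high, triangles those of the set with long genes low, and lines are group means. The ITGB1 circles lie at 386 CPM or more and the triangles at 355 CPM or less.

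The isoforms were compared as the mean of the 2 Δ133p53β lines minus the mean of the 3 Δ133p53α lines. Of the 28 tested members, 0 were called higher and 1 lower, where 0.596% and 0.793% of all genes were, and 4 passed by adjusted p alone, where 4.76% of all genes did. The called member was ITGB4, lower in the Δ133p53β lines (log2 difference -2.13 ± 0.53, adjusted p = 0.0202, edgeR). It was -1.74 (adjusted p = 0.0494) with the library of unclear clone counted in Δ133p53β5 and -1.98 (adjusted p = 0.0235) with it in Δ133p53β10. The call was lost when any 1 of the 3 Δ133p53β5 libraries was left out, with a largest adjusted p of 0.0807 and without the 3 libraries with the highest totals (adjusted p = 0.0624).

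ITGA10 was lower in the Δ133p53β lines by the adjusted p (-1.36 ± 0.34, adjusted p = 0.0222, edgeR), and no longer passed without any 1 of the 3 Δ133p53β5 libraries. LAMC3 (-0.86 ± 0.23, adjusted p = 0.0308, edgeR) and ITGA3 (-0.84 ± 0.22, adjusted p = 0.0315) were lower by the adjusted p as well. The LAMC3 difference no longer passed in 11 of 33 other fits, among them no filter (adjusted p = 0.12) and without the 3 libraries with the highest totals (adjusted p = 0.0919), and in 8 of them a single library was left out. For ITGA3 the Δ133p53β libraries had 400 to 660 CPM and the Δ133p53α libraries 551 to 1560 CPM, and the difference no longer passed with the library of unclear clone, which had 1110 CPM, in Δ133p53β5 (-0.63, adjusted p = 0.146) or Δ133p53β10 (-0.71, adjusted p = 0.0877). In all it did not pass in 12 of 33 other fits, among them without the 3 libraries with the highest totals (adjusted p = 0.0897). The median log2 difference of the members was -0.45 and that of all genes -0.01, and 24 of the 28 members lay below 0. Here too the share of all genes below 0 is not given, and the part of the length sets was not tested. With 3 clones against 2, differences between clones and between isoforms cannot be told apart.

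Between the Δ133p53β lines, edgeR called 0 members and 0% of all genes in either direction, with 0 members at an unadjusted p under 0.05, and DESeq2 and limma-voom called 0. The share of all genes at that unadjusted p is not given here. The 95% interval of the Δ133p53β10 minus Δ133p53β5 difference was -0.52 to 0.52 log2 units for ITGAM, -0.42 to 1.14 for LAMC3 and -0.85 to 2.49 for ITGB4, so differences of that size were not detectable here.

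Genes around these receptors were counted from 2 lists. Of 29 genes of the adhesion complex on the inner side of integrins, 27 were tested. TNS1, a tensin that links β subunits to actin, was called higher in Δ133p53α1 (log2 fold change 2.48 ± 0.64, adjusted p = 0.0265, edgeR) and Δ133p53α2 (3.74 ± 0.64, adjusted p = 0.000691), from 0.165 ± 0.0422 CPM (SD, n = 4) in control. TNS3, another tensin, was called lower in Δ133p53β5 (-2.26 ± 0.43, adjusted p = 0.00203) and Δ133p53β10 (-2.20 ± 0.39, adjusted p = 0.00077). By the adjusted p alone, TNS3 was also lower in Δ133p53α1 (-1.48 ± 0.38, adjusted p = 0.0251, edgeR) and Δ133p53α2 (-1.28 ± 0.38, adjusted p = 0.0498). Its mean in Δ133p53α8 was 6.46 CPM, against 15.5 CPM in control. PARVB, an ILK partner, was called lower in Δ133p53α2 (-1.91 ± 0.50, adjusted p = 0.0245) and TLN2, a talin, in Δ133p53β5 (-1.60 ± 0.31, adjusted p = 0.0024). TLN2 was also lower by the adjusted p alone in Δ133p53α1 (-1.03 ± 0.28, adjusted p = 0.0343, edgeR), Δ133p53α8 (-1.23 ± 0.28, adjusted p = 0.0109) and Δ133p53β10 (-1.11 ± 0.28, adjusted p = 0.0139). The other tested genes of this list gave no call in any line. The shares of all tested genes called in each line are those given above for the members, and other fits are not given for these genes.

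Of 14 genes of matrix ligands and other laminin receptors, 13 were tested. SPP1, osteopontin, an RGD ligand of αV and α5 integrins, was called lower in Δ133p53α2 (log2 fold change -2.03 ± 0.43, adjusted p = 0.00487, edgeR), Δ133p53α8 (-3.01 ± 0.44, adjusted p = 0.000193), Δ133p53β5 (-2.83 ± 0.49, adjusted p = 0.000936) and Δ133p53β10 (-3.18 ± 0.45, adjusted p = 7.96e-05). Its level was 16.0 to 46.9 CPM in control and 0.790 to 4.85 CPM in the Δ133p53β libraries. It was 8.20 to 18.4 CPM in Δ133p53α1, 4.37 to 10.1 CPM in Δ133p53α2 and 2.71 to 4.33 CPM in Δ133p53α8. TNC, tenascin-C, was called lower in Δ133p53β5 (-3.04 ± 0.74, adjusted p = 0.012) and Δ133p53β10 (-2.91 ± 0.65, adjusted p = 0.00614), and FN1, fibronectin, in Δ133p53β10 (-1.69 ± 0.48, adjusted p = 0.028). HSPG2, perlecan, was called lower in Δ133p53β5 (-1.85 ± 0.34, adjusted p = 0.00143) and SDC1, syndecan-1, in Δ133p53α8 (-1.77 ± 0.30, adjusted p = 0.00088). By the adjusted p alone, HSPG2 was also lower in Δ133p53α2 (-1.12 ± 0.30, adjusted p = 0.0304, edgeR) and Δ133p53β10 (-1.34 ± 0.30, adjusted p = 0.00654), and SDC1 in Δ133p53β5 (-1.28 ± 0.33, adjusted p = 0.0169). MCAM was higher by the adjusted p alone in Δ133p53β10 (0.79 ± 0.22, adjusted p = 0.0294). The median log2 fold change of the list was -1.0 in Δ133p53β5 and -0.83 in Δ133p53β10, against -0.03 and -0.05 over all tested genes. The part of the uneven length sets in these medians was not tested. In each of these lines 3 of the 13 genes were called lower, against 2.96% and 2.97% of all tested genes. No gene of the list was called higher in any line, where 0.978% to 1.76% of all tested genes were, so 0 of 13 is close to that share. Other fits are not given for these genes.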

How the data were processed

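The authors sequenced strand-specific libraries of poly(A) RNA. Per the methods of the study and its labels, reads were trimmed with Cutadapt, aligned to GRCh38 with HISAT2 and counted per gene with featureCounts against Ensembl gene models. The authors deposited the raw counts, not normalized. The table held 60563 named genes and 1 unnamed row with 0 reads, which was left out. The handling of strand and of reads with several matches in the counting is not given in the sources used here.

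The counts of 23 libraries in 6 groups were fitted in R 4.3.3 with edgeR 4.0.16 (TMM, filterByExpr by group, quasi-likelihood F test, 17 residual degrees of freedom), with Benjamini-Hochberg adjustment over 18295 genes, and 1 library of unclear clone was left out. Alternatives were DESeq2 1.42.0, limma-voom (limma 3.58.1), RLE size factors, no filter, the replicate number as a block, the length set as a term, removal of trends with length and GC content, counting the library of unclear clone in either line, and leaving out each library. Omitting the 3 libraries of highest total was chosen after the data were seen. They are control replicate 1 and replicates 3 and 4 of Δ133p53β10, so this omission falls on that line and on control. Exon lengths and coordinates came from GENCODE on GRCh38, and promoters from RefSeq (GRCh38.p14).

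Values in every library are given for members called in any comparison and for ITGA5 and ITGB1 by rule. LAMB3 was added after its values were seen. The members, the lists and this rule were chosen with earlier results of these data known. No pair of the 33 pairs of libraries of a line repeated another (lowest chi-square per degree of freedom 15.8). On simulated counts for Δ133p53α1 against control (17923 genes), edgeR recovered 83 of 100 genes changed by 2 log2 units and 94 of 100 changed by 3, with 4 false calls. The changed genes were drawn above a floor on mean CPM that ITGAX, ITGB2, ITGB7 and ITGB6 do not reach. The counts were drawn independently, without the length sets. These figures therefore do not give the recovery for those members or the false calls in libraries with such sets.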

Additional observations from a re-analysis of the deposited data

Results flagged for a closer look

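In 45 sets of values of 1 named member in 1 line with 4 libraries, 8 held a library that stood apart from the other 3 by its gap to the nearest of them. For independent values of 1 distribution, chance gives about 1 in 20, or 5%, for each set. These libraries fall into the length sets, and 1 library can be flagged in several members, so the 8 cannot be judged against that share. Replicate 1 of Δ133p53α1, replicate 2 of Δ133p53α8 and replicate 1 of Δ133p53β10 were each the single library of their line in their length set. Replicate 4 of Δ133p53α1 was high in ITGA5 (106 CPM, others 63.5 to 66.0), ITGAX (2.29 CPM, others 0.101 to 0.296) and ITGB4 (83.6 CPM, others 16.8 to 22.9). Replicate 2 of Δ133p53α8 was high in ITGAX (0.653 CPM, others 0 to 0.0849) and ITGB4 (49.9 CPM, others 6.01 to 7.68). Replicate 1 of Δ133p53α1 was high in ITGB1 (527 CPM, others 71.3 to 149). In Δ133p53β10, replicate 4 was low in ITGB2 (0.125 CPM, others 0.961 to 1.04) and replicate 1 high in ITGB6 (0.166 CPM, others 0.0416 to 0.0509).

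The difference between the Δ133p53β and Δ133p53α lines was itself tested and passed the adjusted p for 4 members, all lower in the Δ133p53β lines. That p measures the spread between libraries of a line, so isoforms and clones cannot be told apart. The log2 difference was -2.13 for ITGB4, -1.36 for ITGA10, -0.86 for LAMC3 and -0.84 for ITGA3. Of 33 other fits, ITGB4 did not pass in 5, ITGA10 in 4, LAMC3 in 11 and ITGA3 in 12. Among the Δ133p53α clones, LAMC3 differed by 1.80 log2 units between Δ133p53α8 and Δ133p53α2.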

How the results depend on the processing

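Of 561 values of 17 called fold changes under the alternatives, 458 kept their call, 103 lost it and 0 changed direction. For each fold change, 23 of the 33 other fits left out 1 library, often of a line outside the comparison. These fits share most of their libraries, so the counts are a description and not independent checks. The number of members called against control changed as follows. With no filter it was 4 in Δ133p53α1, where LAMA1 and LAMA4 were added, and 2 in Δ133p53α8, where these were the 2. In Δ133p53α8 it was 1 with DESeq2 and 1 with the length set as a term (ITGAX both times), and 1 (LAMA1) without the 3 libraries with the highest totals. In Δ133p53β5 it was 3 with limma-voom, and with the replicate block 2. In Δ133p53β10 it was 3 with limma-voom and 2 without the 3 libraries with the highest totals. Between the isoforms it was 0 with the replicate block and 0 without those 3 libraries. Among the Δ133p53α clones it was 2 (ITGB2 and LAMC3) with DESeq2, with no filter, with the length set, with the library of unclear clone in either line, and without the 3 libraries. The causes were not tested. Leaving out each library gave 2 to 4 members in Δ133p53α1, 2 to 3 in Δ133p53α2, 0 to 2 in Δ133p53α8, 2 to 6 in Δ133p53β5, 2 to 8 in Δ133p53β10, 0 to 2 between the isoforms, 0 to 0 between the Δ133p53β lines and 0 to 2 among the Δ133p53α clones. In Δ133p53α8, members were called without replicate 4 of Δ133p53α1, replicate 1 or 2 of Δ133p53α8 or any 1 Δ133p53β5 library. The count also moved by more than 1.5 times without Δ133p53α1 replicate 1 (Δ133p53α1), without replicate 1 or 3 of Δ133p53β5 or control replicate 3 (Δ133p53β5), and without replicate 2 or 3 of Δ133p53α1 or Δ133p53β10 or control replicate 3 (Δ133p53β10). Over all genes, the called count in Δ133p53β10 was 474 in place of 866 without the 3 libraries, and 283 in place of 143 with DESeq2 among the Δ133p53α clones. It was 314 to 1606 in place of 472 in Δ133p53α1, 460 in place of 782 in Δ133p53β5 and 1301 in place of 866 in Δ133p53β10 where 1 library was left out. Replicate numbers did not pair the libraries, with a median correlation of same-numbered deviations of -0.00084 (from -0.88 to 0.887 over 55 pairs). With the number as a replicate block, members that had passed the adjusted p (edgeR) and no longer did were ITGAX (adjusted p = 0.0855), ITGB7 (0.0581), ITGB4 (0.0571) and LAMB2 (0.0686) in Δ133p53β5, ITGAE (0.0848), ITGB2 (0.0848) and ITGB6 (0.082) in Δ133p53β10, and ITGA10 (0.0509), ITGB4 (0.0536), ITGA3 (0.0541) and LAMC3 (0.0657) between the isoforms. The called members below 2 CPM rest on few reads, which limits their precision.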

Other observations

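Within lines, ITGB4 and LAMB2 peaked in the same library. The library with the highest ITGB4 was also the one with the highest LAMB2 in 6 of 6 lines, and the one with the highest ITGAX or ITGA2B in 5 of 6. For ITGA5, ITGA3, ITGA7, ITGB3 and ITGB7 it was 4 of 6, and for ITGA6 and LAMC1 0 of 6. These counts were made after the values were seen and for the members alone. The share of all genes that matched ITGB4 as often is not given here, so the matches cannot be read as particular to these members. Whether the libraries differ in culture or handling is not given in the sources used here.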
